A study of Homo sapiens with 28 samples.

Results

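Genome-wide binding of phosphorylated c-JUN (p-c-JUN) was compared between proliferating cells and senescent cells depleted of the transcription factors FOXF1 and FOXF2. The comparison asked how much of the p-c-JUN binding gained in senescence was reached without these factors, and where it was not. The libraries were chosen by title and numbered 4 of the 28 in the series: 2 of senescent cells after siRNA against both genes (siFOXF1/2) and 2 of proliferating cells (Pro). A further 2 p-c-JUN libraries of senescent cells with control siRNA (Sen) served as the reference for the senescence gain. All were made by CUT&RUN, in which an antibody directs a nuclease to cut the DNA beside its target, from IMR-90 ER:Ras cells. IMR-90 is a fibroblast line of human fetal lung, and ER:Ras is an oncogenic Ras fused to the estrogen receptor, so that 4-hydroxytamoxifen turns it on and the cells enter senescence.

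Each group is 1 cell line with transient siRNA. Sen cells were labelled with control siRNA and 100 nM 4-hydroxytamoxifen for 6 days, and siFOXF1/2 cells with the same drug and time and siRNA against FOXF1 and FOXF2. The Pro libraries carry the same treatment and cell type tags as the Sen libraries, so the proliferating state rests on their titles alone. Nothing says that the 2 libraries of a group came from separate cultures, so p-values reflect the spread of the libraries, possibly a technical one. The labelled cell type was not checked against marker genes.

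c-JUN is a subunit of AP-1, a dimeric transcription factor, and phosphorylation of its amino-terminal region by JNK kinases increases its activity. AP-1 binds enhancers, many of them together with other factors, and has been described as an organizer of the enhancers used in oncogene-induced senescence. FOXF1 and FOXF2 are related forkhead transcription factors of mesenchymal cells, with FOXF1 known for its role in lung development. Acetylation of histone H3 at lysine 27 (H3K27ac) marks active enhancers and promoters.

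The p-c-JUN lists held 75005 and 86110 peaks in siFOXF1/2 replicates 1 and 2, and 24808 and 32136 in Pro replicates 1 and 2. The Sen lists held 70177 and 93443. Both siFOXF1/2 lists were thus longer than both Pro lists, and lay between the Sen lists. Their mean of 80557.5 ± 7852 peaks (SD, n = 2) was 2.83 times the Pro mean of 28472 ± 5182 (SD, n = 2), a log2 difference of 1.51 ± 0.21 (SE). An exact two-sided permutation test gave p = 0.33 for this difference, the smallest p that 2 libraries against 2 allow. Against the Sen libraries the log2 difference was -0.01 ± 0.23 (SE), with p = 1.0 in the same exact permutation test.

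**Figure D1:**
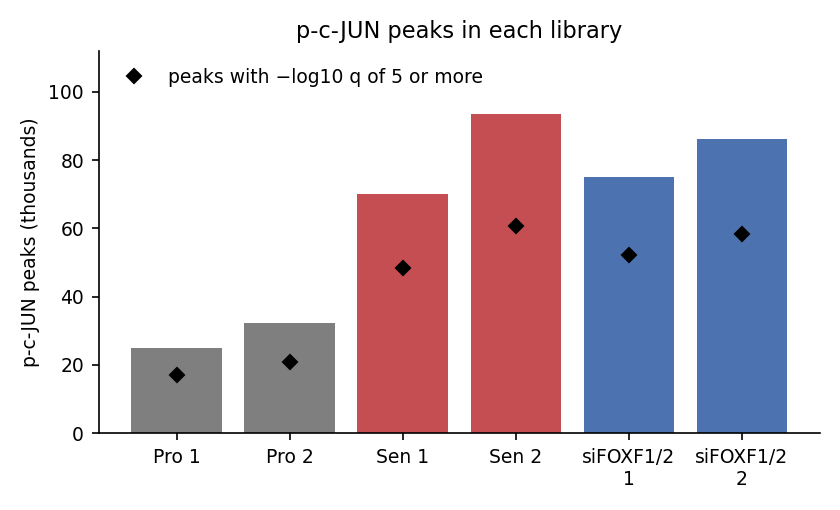
Peaks per p-c-JUN list on chromosomes 1 to 22 and X, by group. Each bar is 1 library, and diamonds mark its peaks with −log10 q of 5 or more. The bars of the siFOXF1/2 lists (75005 and 86110 peaks) rise above both Pro lists (24808 and 32136) and lie between the Sen lists (70177 and 93443).

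Peaks were wider after siFOXF1/2 than in the other libraries, with medians of 448 and 435 bp against 409 and 392 bp in Pro cells and 409 and 373 bp in Sen cells. The part of width in the counts below was not tested by itself, but counts by peak summit, which do not use it, are given. Depth overlapped between the groups. The number of reads is unknown, but the depth estimated from the peak statistics was 4.56 and 2.96 fragments per kb after siFOXF1/2, 3.89 and 3.12 in Pro cells and 3.59 and 3.23 in Sen cells. These are 1 value per library with no interval, and peak numbers were not corrected for them. The knockdown was visible in the FOXF1 CUT&RUN lists, which held 186 and 133 peaks after siFOXF1/2 against 13603 and 40537 in Sen cells and 3441 and 11061 in Pro cells. FOXF2 was not measured.

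Joined by an overlap of at least 1 bp, the peaks of the Pro and siFOXF1/2 libraries formed 103027 regions. A p-c-JUN region was gained, with a peak in both siFOXF1/2 libraries and in neither Pro library, at 31433 (30.5%) of them. It was lost, with the reverse pattern, at 318 (0.309%). There were 98.8 gained regions for each lost one, and between 258 and 1318 regions were held by exactly 1 library of each group, depending on the pair. The binding of proliferating cells was largely kept: of 20361 regions held by both Pro libraries, 95.6% held a peak in siFOXF1/2 replicate 1 and 97.0% in replicate 2.

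The balance of gained against lost regions differed with list length. With each list limited to its 24808 strongest peaks, 5134 regions were gained and 4156 lost, while 392 to 515 were held by 1 library of each group. Left out singly, the libraries moved the gained count to between 34255 and 54449, the highest without siFOXF1/2 replicate 1. Without a library, 1 list stands for its group, so the rule is looser and a rise of both counts is built in. The lost count became 2545 without Pro replicate 1, 1167 without Pro replicate 2, 623 without siFOXF1/2 replicate 1 and 891 without siFOXF1/2 replicate 2. With summits within 200 bp in place of overlap, 28145 regions were gained and 981 lost.

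To ask how much of the senescence gain was reached, the peaks of the Pro, Sen and siFOXF1/2 libraries were joined into 129874 regions. The senescence gain was the 29810 regions (23%) with a peak in both Sen libraries and in neither Pro library. Of these, 18795 (63.0%) held a peak in both siFOXF1/2 libraries, 6386 (21.4%) in 1 of them and 4629 (15.5%) in neither. They are called reached, partly reached and not reached below. The knockdown had its own gain of 31437 regions (24.2%), of which 59.8% were in the senescence gain, 23.6% were held by 1 Sen library and 16.6% (5232 regions) by none. Both gains were defined against the same Pro libraries, so their overlap is the count that the comparison asks for and not independent evidence.

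A share below 100% does not by itself set the siFOXF1/2 libraries apart, because replicates of 1 group differ too. The gain was therefore defined from 1 Sen library alone, and the share held by the other Sen library was set beside the shares held after knockdown. Of the 38946 regions with a peak in Sen replicate 1 and in no Pro library, 76.5% held a peak in Sen replicate 2, 61.1% in siFOXF1/2 replicate 1 and 69.5% in siFOXF1/2 replicate 2. Of the 60292 regions so defined from Sen replicate 2, 49.4% held a peak in Sen replicate 1, 46.3% in siFOXF1/2 replicate 1 and 55.5% in siFOXF1/2 replicate 2. The siFOXF1/2 libraries were thus both below the Sen replicate in the first case and on either side of it in the second.

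The lists also differ in length, and the shares were compared again at equal length. With the Sen and siFOXF1/2 lists limited to 70177 peaks each, the gain of Sen replicate 1 was held at 64.2% by the other Sen library and at 59.0% and 60.9% by the siFOXF1/2 libraries. The gain of Sen replicate 2 was held at 63.8% by the other Sen library and at 55.7% and 59.0% after knockdown. Both siFOXF1/2 libraries were then below the Sen replicate in both cases, and their mean reached 93.4% and 89.9% of its share. The same held in the other direction. At equal length, the gain of siFOXF1/2 replicate 1 was held at 67.5% by the other siFOXF1/2 library and at 58.1% and 55.2% by the Sen libraries. For siFOXF1/2 replicate 2 these values were 67.6%, 60.2% and 58.6%.

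The mean difference between siFOXF1/2 and Sen libraries in these shares was -4.90 percentage points with the lists as deposited. It was -0.567 points without siFOXF1/2 replicate 1 and -9.34 points without siFOXF1/2 replicate 2, so with these lists its size rested on which knockdown library was used. At 70177 peaks a list it was -5.33 points, and the shares held by the siFOXF1/2 libraries lay closer together. The share reached by both siFOXF1/2 libraries was 62.6% at that length, 39.6% where the gain was defined without Sen replicate 1 and 57.6% with summits within 200 bp in place of overlap.

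**Figure D2:**
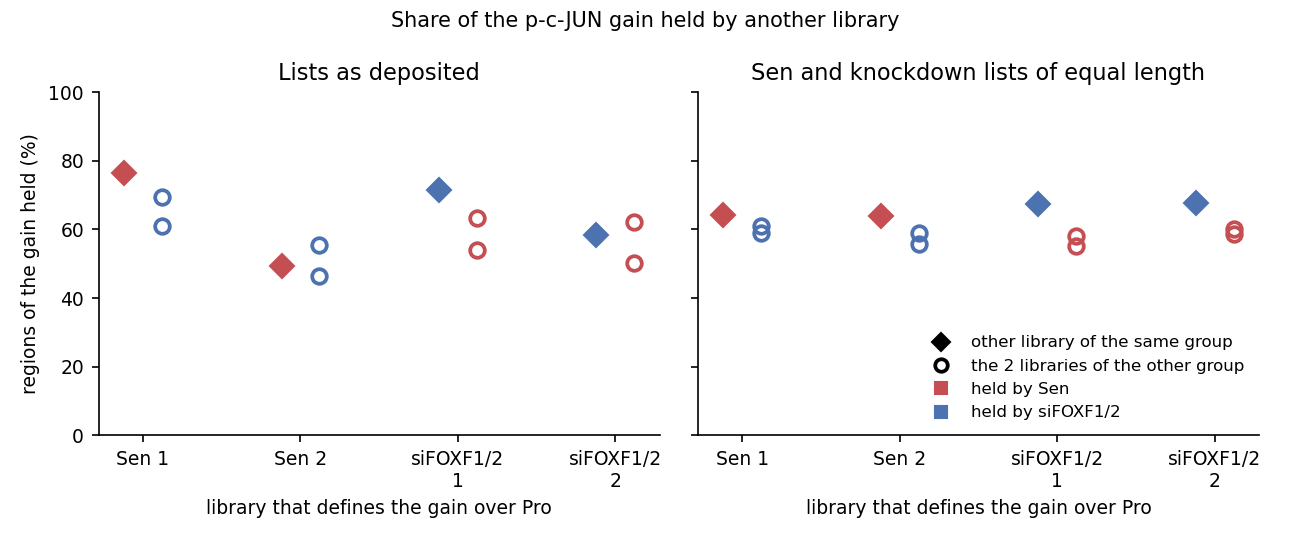
Share of the p-c-JUN gain defined from 1 library (percent of its regions absent from both Pro lists) that each other Sen or siFOXF1/2 library held, with the lists as deposited and at 70177 peaks each. Points are single libraries; at equal length the replicate of the same group holds the larger share in every case, such as 64.2% against 59.0% and 60.9% for Sen replicate 1.

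The strongest gained regions were reached nearly in full. Within each list, regions were ranked by the authors' −log10 q, and the senescence gain was divided into 10 equal strata by the worse of the 2 Sen ranks. In the strongest stratum 91.9% of regions were reached and 1.64% were not, and in the weakest 40.6% were reached and 30.4% were not. The share not reached rose at every step between them. Weak regions were found less often in the Sen replicate too. Over strata of the gain of Sen replicate 1, the other Sen library held from 99.3% of the strongest to 47.8% of the weakest, siFOXF1/2 replicate 1 from 91.6% to 32.1% and siFOXF1/2 replicate 2 from 96.4% to 39.6%.

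The leading reached regions, which were chosen by their ranks in the siFOXF1/2 lists, had strong peaks in all Sen and siFOXF1/2 lists. The values given for single regions are the authors' fold enrichment over local background at the summit, and coordinates are in build hg19. On chromosome 6 at 100660111 to 100660888 the fold was 18.9 and 17.7 in the Sen lists and 18.2 and 19.3 in the siFOXF1/2 lists, with no peak in Pro cells. On chromosome 13 at 32392278 to 32392825 it was 22.9 and 17.5 in Sen and 25.1 and 24.9 after knockdown. On chromosome 10 at 112853498 to 112854080 it was 20.9 and 20.5 in Sen and 24.3 and 26.2 after knockdown. Neither of the last pair held H3K27ac in any Pro, Sen or siFOXF1/2 list, while the chromosome 6 region held it in both Sen lists and 1 siFOXF1/2 list. Of the 10 leading reached regions, which ranked 619 or better in both siFOXF1/2 lists, 6 overlapped a FOXF1 peak of either Sen list. Over all reached regions that share was 27.1%. Among the 10, 1 overlapped a region bound by FOXF1 in both Sen lists. That region, on chromosome 5 at 81661476 to 81662200, had a fold of 23.7 and 25.0 in Sen cells and 22.5 and 24.9 after siFOXF1/2.

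The leading regions that were not reached ranked from 6447 to 12893 in the worse Sen list. The median of that rank over the whole senescence gain was 51501.5. The region on chromosome 9 at 124186515 to 124187008 had a fold of 13.6 and 15.9 in the Sen lists and no peak in the Pro or siFOXF1/2 lists. It overlapped FOXF1 peaks of both Sen lists and H3K27ac of both Sen lists, and held H3K27ac in no siFOXF1/2 list. The region on chromosome 10 at 58106632 to 58107188 (fold 11.2 and 14.4) also overlapped FOXF1, and held H3K27ac in both Pro, both Sen and 1 siFOXF1/2 list. The region on chromosome 3 at 177858112 to 177858525 (10.5 and 11.6) overlapped FOXF1 in 1 Sen list, and that on chromosome 15 at 88256800 to 88257264 (11.4 and 17.0) in none. Of these 10 leading regions, 5 overlapped a FOXF1 peak of either Sen list and 3 a FOXF1 region of both Sen lists. Over all regions not reached these shares were 33.3% and 10.8%. H3K27ac was absent from both siFOXF1/2 lists at 8 of the 10, but 5 held it in no Sen list either. Of the 10, 2 held it in both Sen lists and 8 held it in no Pro list. Among all p-c-JUN regions, 53.5% held it in no Sen list, 27.4% in both Sen lists and 52.1% in no Pro list. Over the whole class 67.5% of regions held no H3K27ac in either siFOXF1/2 list, against 49.7% of all p-c-JUN regions. Over the whole class the median fold was 4.64 and 5.10 in the Sen lists, against 6.03 and 6.61 for reached regions in the same lists. A −log10 q of 5 or more was found in Sen replicates 1 and 2 for 38.2% and 54.3% of regions not reached, and for 74.1% and 80.9% of reached regions. In bulk lists, binding in fewer cells and weaker binding in each cell cannot be told apart.

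Regions bound by FOXF1 in senescence were less often reached. FOXF1 peaks of both Sen lists formed 11287 regions, and 7.84% of all p-c-JUN regions overlapped one. The share was 6.51% of reached regions (1224), 8.49% of partly reached regions (542) and 10.8% of regions not reached (501). Read the other way, 54.0% of the 2267 gained regions with FOXF1 were reached and 22.1% were not, against 63.8% and 15.0% of the 27543 without it. The difference was present although gained regions with FOXF1 were the stronger ones, with a median rank in the worse Sen list of 43865 against 52074.

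Within every one of the 10 strata of strength, the share not reached was higher with FOXF1 than without. It ran from 2.96% against 1.44% in the strongest stratum to 50.4% against 29.5% in the weakest. Between regions not reached and reached, leaving out the partly reached, the odds of not being reached with FOXF1 were 1.74 times those without it, and 2.83 times within strata. The difference in FOXF1 overlap between not reached and reached regions, 4.31 percentage points, was not stable when the gain was defined from fewer libraries. It was 1.38 points without Sen replicate 2, 2.27 without siFOXF1/2 replicate 1 and -0.158 without Sen replicate 1, where the odds ratio within strata was 2.03.

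**Figure D3:**
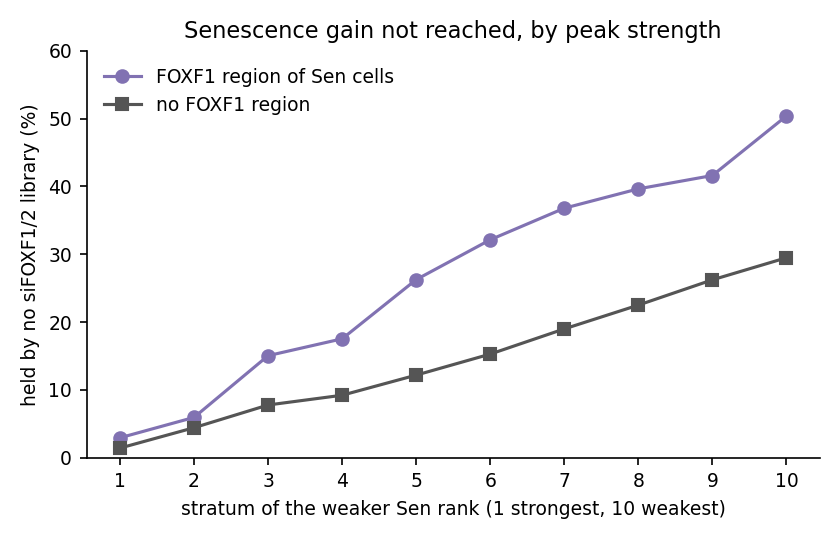
Share of the senescence gain not reached (percent of regions, no p-c-JUN peak in either siFOXF1/2 library) over 10 strata of strength, from the strongest to the weakest, for regions with and without FOXF1 in both Sen lists. The line with FOXF1 lies above the line without it in every stratum, from 2.96% against 1.44% to 50.4% against 29.5%.

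The FOXF1 lists come from Sen cells, and regions with FOXF1 were also found more often in the other Sen library. The part of this in the results by FOXF1 overlap was not tested. Of the gain of Sen replicate 1, regions with FOXF1 (2504) held a peak in Sen replicate 2 in 90.5% of cases and regions without it (36442) in 75.6%. In siFOXF1/2 replicates 1 and 2 the shares were 54.6% and 68.9% with FOXF1, and 61.5% and 69.5% without. Of the gain of Sen replicate 2, regions with FOXF1 were held by Sen replicate 1 in 68.8% of cases and the others in 48.3%, against 44.7% and 46.4% in siFOXF1/2 replicate 1 and 58.6% and 55.3% in siFOXF1/2 replicate 2. Within strata of strength, the odds that a FOXF1 region was absent were 0.397 times those of other regions in Sen replicate 2, but 1.98 times in siFOXF1/2 replicate 1 and 1.46 times in siFOXF1/2 replicate 2. For the gain of Sen replicate 2 the odds ratios were 0.625 in Sen replicate 1, and 1.84 and 1.46 in the siFOXF1/2 libraries. At like strength, regions with FOXF1 were thus more often found again in the other Sen library and less often found after knockdown. Without strata the odds ratios after knockdown were 1.33 and 1.03 for the gain of Sen replicate 1, and 1.07 and 0.873 for that of Sen replicate 2, so the order in siFOXF1/2 replicate 2 rests on the strata.

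The same odds are given for H3K27ac of Sen cells. Regions acetylated in both Sen lists had odds of absence of 0.39 in Sen replicate 2 for the gain of Sen replicate 1, and of 0.943 and 0.767 in the siFOXF1/2 libraries. For the gain of Sen replicate 2 these were 0.674 in the replicate and 1.00 and 0.847 after knockdown. As with FOXF1, the odds of absence were higher after knockdown than in the other Sen library, but the highest of them was 1.00. FOXF1 peaks of Pro cells were rarer at gained regions than those of Sen cells. With a peak in either Pro list as the criterion, the odds ratios were 0.584 in Sen replicate 2 and 1.65 and 1.16 after knockdown for the gain of Sen replicate 1. For the gain of Sen replicate 2 they were 0.735, 1.69 and 1.22. All 8 odds ratios of absence after knockdown by FOXF1 overlap within strata, 4 with FOXF1 of Sen cells and 4 with FOXF1 of Pro cells, were above 1, and all 4 in the other Sen library were below it.

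The share not reached was higher where the FOXF1 peak was stronger. Among gained regions with FOXF1, divided into 3 equal groups by FOXF1 rank, 25.9% were not reached in the strongest group, 20.8% in the middle group and 19.1% in the weakest. Distance between the FOXF1 and p-c-JUN summits separated the classes little, with a median of 93 bp in reached, 79 bp in partly reached and 91 bp in not reached regions. With summits under 50 bp, 50 to 150 bp and 150 bp or more apart, 23.3% of 695, 22.5% of 799 and 20.0% of 740 regions were not reached. These groups also differed in p-c-JUN strength, with median ranks in the worse Sen list of 40332, 44065 and 46166. Regions near FOXF1 but not overlapping it had lower shares. Of 369 gained regions within 1 kb of a FOXF1 region but not overlapping it, 19.8% were not reached, and beyond 1 kb the share was between 14.8% and 15.1%.

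Gained regions that kept p-c-JUN after knockdown ranked lower where FOXF1 had been bound. With the Sen and siFOXF1/2 lists limited to 70177 peaks each, 15666 gained regions were held by all of these lists, 1082 of them with FOXF1. The median rank of those with FOXF1 was 24917 and 23345 in the Sen lists and 35967 and 31990 in the siFOXF1/2 lists, where rank 1 is the strongest peak. Both siFOXF1/2 ranks were weaker than both Sen ranks at 448 of them (41.4%) and stronger at 111 (10.3%). Over all 15666 regions these shares were 21% and 26.4%. Regions without FOXF1 (14584) had median ranks of 32800 and 34388 in Sen and 31514 and 30910 after knockdown, with 19.4% weaker and 27.5% stronger, so these ranked somewhat higher after knockdown.

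Gained regions with FOXF1 of Pro cells or with H3K27ac of Sen cells also ranked lower after knockdown, as did regions with FOXF1 that were not gained. With a FOXF1 peak in either Pro list (422 regions), 35.3% ranked weaker in both siFOXF1/2 lists and 9.24% stronger. With H3K27ac in both Sen lists, whether or not FOXF1 was there (4969 gained regions), 27.1% ranked weaker and 18.6% stronger. At the 11325 such regions held by all 6 lists 29.6% ranked weaker and 21.0% stronger. These were close to the shares over all 18088 regions held by all 6 lists, 27.9% weaker and 22.7% stronger. Among regions held by all 6 p-c-JUN lists, the 4499 with FOXF1 had median ranks of 7869 and 7920 in Sen and 10029 and 9965 after knockdown, and 36.2% were weaker against 15.1% stronger. The 13589 without FOXF1 were balanced, with 25.2% weaker and 25.2% stronger. Ranks place a peak within its own list, so they show a change relative to other peaks and not an absolute loss.

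**Figure D4:**
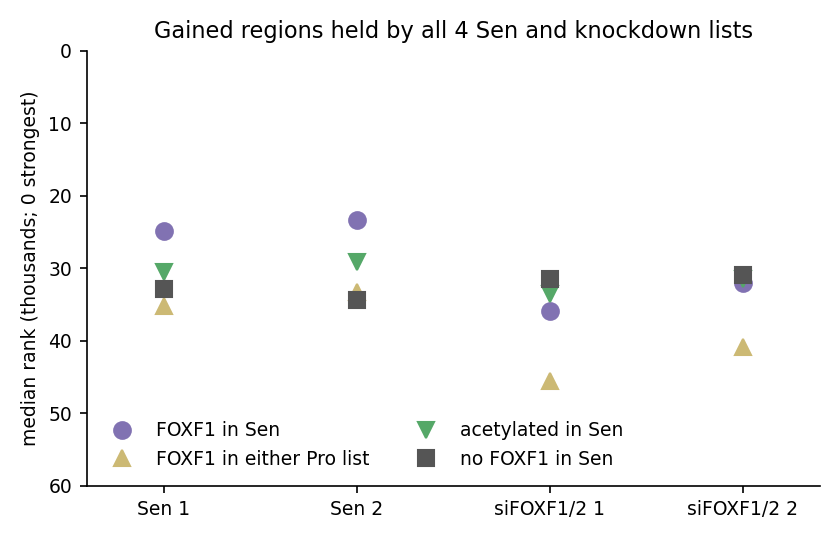
Median rank of p-c-JUN regions in the 2 Sen and 2 siFOXF1/2 lists at equal length (strongest at the top of the axis), for gained regions held by all of them, by FOXF1 and H3K27ac state. Gained regions with FOXF1 go from 24917 and 23345 in Sen to 35967 and 31990 after knockdown, while those without it lie between 30910 and 34388.

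H3K27ac of Sen cells was more often absent after knockdown where p-c-JUN was not reached. The H3K27ac lists, made from other libraries than the p-c-JUN lists, held 84864 and 60862 peaks in Sen cells and 84673 and 71746 after siFOXF1/2. Of the regions acetylated in both Sen lists, H3K27ac was absent from both siFOXF1/2 lists at 378 of 1270 regions not reached (29.8%), 273 of 1865 partly reached (14.6%) and 377 of 5684 reached (6.63%). Over all p-c-JUN regions the share was 7.47%, and where all 6 p-c-JUN lists held a peak it was 1.13%. The siFOXF1/2 H3K27ac lists gave the same order singly: 39.0% and 45.1% of regions not reached lacked the mark in replicates 1 and 2, against 11.3% and 16.8% of reached regions. Where the acetylation was itself new in senescence, present in both Sen and in no Pro list, it was absent after knockdown at 200 of 338 regions not reached (59.2%) and 202 of 1193 reached (16.9%). Over all p-c-JUN regions with such new acetylation it was absent at 1186 of 3707 (32.0%). Joined regions differed in width, with medians of 404 bp where not reached, 485 bp where partly reached and 587 bp where reached. With summits within 200 bp in place of overlap, H3K27ac was absent after knockdown at 40.0% of regions not reached and 20.0% of reached regions. The part of width in this difference was not tested by itself.

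The difference was present in every stratum of p-c-JUN rank and in every stratum of H3K27ac rank in Sen cells. Across strata of p-c-JUN rank the share without H3K27ac after knockdown was between 24.1% and 61.5% for regions not reached, the highest from only 13 regions, and between 2.77% and 9.02% for reached regions. In 4 equal groups from the strongest to the weakest H3K27ac it was 7.98%, 21.5%, 35.5% and 54.3% where p-c-JUN was not reached, and 0.729%, 3.88%, 6.43% and 15.2% where it was. The difference of 23.1 percentage points was 10.4 points (13.9% against 3.46%) with the shorter Sen H3K27ac lists of replicates 3 and 4, of 48859 and 26694 peaks. It was 16.4 without siFOXF1/2 replicate 1 of the p-c-JUN lists and 15.4 without replicate 2.

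At regions not reached, absence of H3K27ac after knockdown was close to equal with and without FOXF1, at 92 of 311 regions with FOXF1 (29.6%) and 286 of 959 without (29.8%). The initial acetylation state also went with how often p-c-JUN was reached. Regions already acetylated in both Pro lists were not reached in 13.5% of 8425 cases, those newly acetylated in Sen cells in 17.7% of 1913, and those acetylated in neither in 17.3% of 11967. In the same order, their median p-c-JUN ranks in the worse Sen list were 51068, 41678 and 54490. The shares of these states were thus not compared at like strength. Among these states the largest shares were found where FOXF1 met a region with no acetylation (55 of 175, 31.4%) or with new acetylation (68 of 243, 28.0%), against 17.1% and 16.2% of such regions without FOXF1. Where FOXF1 met acetylation already present in Pro cells, 18.9% were not reached, against 12.5% without FOXF1.

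**Figure D5:**
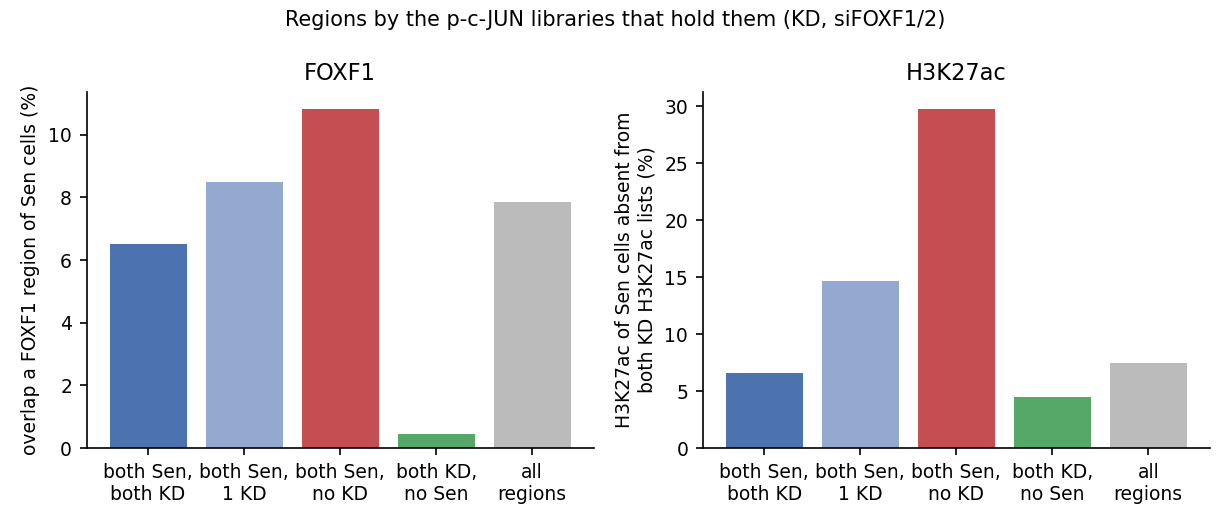
Share of p-c-JUN regions of each class (percent) that overlapped FOXF1 of Sen cells (left), and, of those acetylated in both Sen lists, that held H3K27ac in neither siFOXF1/2 (KD) list (right). FOXF1 overlap runs from 6.51% of reached to 10.8% of not reached regions and 0.44% of regions found only after knockdown, and absence of H3K27ac from 6.63% of reached to 29.8% of not reached regions.

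Depletion of FOXF1 and FOXF2 also came with p-c-JUN at regions that no Sen or Pro library held. These numbered 5232, or 4.03% of all regions, against 4629 (3.56%) not reached. Their median fold of 4.74 and 4.97 in the siFOXF1/2 lists stood beside 6.16 and 6.78 for reached regions in the same lists. The leading one lay on chromosome 10 at 115095127 to 115095631, with a fold of 13.1 and 14.5 and no H3K27ac in any list. On chromosome 4 at 169031950 to 169032558 the fold was 15.2 and 16.3, with H3K27ac in both siFOXF1/2 lists and 1 Sen list. On chromosome 2 at 73280693 to 73281045 it was 16.5 and 15.8, with H3K27ac in both siFOXF1/2 lists, 1 Pro list and no Sen list.

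Regions found only after knockdown seldom overlapped FOXF1, and many of those acetylated after knockdown held no H3K27ac in Sen cells. FOXF1 of both Sen lists overlapped 23 of them (0.44%). The absence of a Sen p-c-JUN peak was part of their definition, and the FOXF1 lists come from Sen cells. Of the 1149 acetylated in both siFOXF1/2 lists, 509 (44.3%) held H3K27ac in no Sen list, against 15.3% of 7637 reached regions, 5.61% of 784 regions not reached and 11.5% of all regions. The H3K27ac of Sen cells, in turn, was absent after knockdown at 17 of the 377 such regions that held it (4.51%).

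The 311 regions held by both Pro libraries and by no siFOXF1/2 library (0.239% of the 6-list regions) were mixed with respect to senescence. Both Sen libraries held 119 of them, 1 Sen library held 90 and none held 102. FOXF1 of either Pro list overlapped 34.7% of them, against 28.8% of regions held by all 6 lists and 7.72% of all regions. For FOXF1 of both Sen lists these shares were 15.1%, 24.6% and 7.84%. Of the 10 leading regions, 3 overlapped a FOXF1 region of both Sen lists. Both Sen libraries held p-c-JUN at 5 of the 10, of which 3 had FOXF1 in both Sen lists and 2 overlapped no FOXF1 peak of any Sen or Pro list. The region on chromosome 4 at 18884105 to 18884419 had a fold of 12.4 and 13.7 in Pro cells and no peak in Sen cells or after knockdown, and its H3K27ac was likewise found in both Pro lists and no other. The region on chromosome 14 at 88237575 to 88237813 had a fold of 14.3 and 13.4 in Pro cells and 9.73 and 12.0 in Sen cells, with FOXF1 in both Sen lists, and no peak after siFOXF1/2. On chromosome 9 at 81205148 to 81205538 the fold was 7.62 and 9.84 in Pro cells and 6.56 and 7.25 in Sen cells, with FOXF1 in both Pro and both Sen lists, and again no peak after knockdown. One of the 2 without FOXF1, on chromosome 5 at 132387348 to 132387609, had a fold of 7.42 and 8.68 in Pro cells and 9.95 and 10.0 in Sen cells, with H3K27ac in both lists of each group.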

How the data were processed

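The deposited files were 1 peak list per library, with none pooled. Per the submitters' processing notes, the authors used MACS2 3.0.0, Bowtie2 2.3.4.1, deepTools 3.1.1, SAMtools 1.9 and build hg19; no parameters are given. Libraries were sequenced with 35 bp paired reads and received yeast spike-in DNA, per the labels' protocols. The sources used here do not say whether the spike-in or a control library was used in peak calling. Each deposited peak had a display score (not used), a fold enrichment (a ratio to local background), −log10 p and −log10 q values and a summit offset. These are the authors' own values per peak and served only to rank, filter or describe peaks within a list.

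Restriction to chromosomes 1 to 22 and X removed 129 of 381808 p-c-JUN peaks (0.0338%). No 2 lists were identical. Depth was estimated by solving whole summit pileups from fold and −log10 p (100% were whole to within 0.001 on the −log10 p scale where that value was below 60) and dividing the 0.1% quantile of the background by the narrowest peak. Regions, shares and odds ratios (Mantel-Haenszel in strata) were computed in Python 3.11.15 with pandas 2.3.3, NumPy 2.4.6 and SciPy 1.17.1, and drawn with Matplotlib 3.10.9. Peak numbers were compared on the log2 scale by an exact permutation test. Regions along a genome are not replicates, so shares carry no p-value. Regions named come from the 10 per class with the best worst −log10 q rank, in the siFOXF1/2 lists for reached and knockdown-only regions, the Sen lists for those not reached and the Pro lists for those lost. Coordinates count from 1. Genes, promoters and motifs were not analysed here, since the reference tables used another build than hg19.

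The members and lists were chosen with earlier results of these data known. Alternatives were −log10 q of 5 or more, equal list lengths, 50% overlap of the shorter peak, summits within 200 bp, each library left out, a replicate block, and other FOXF1 and H3K27ac lists. Equal length of the Sen and siFOXF1/2 lists, H3K27ac loss in strata and FOXF1 of Pro cells were chosen after seeing the data. The rank comparison of kept regions, FOXF1 strength and distances between summits or regions were not planned either. Nor were the splits by initial acetylation and by chromosome, and the H3K27ac of knockdown-only regions set against Sen cells. On simulated lists of 6000 regions all 8 planted counts, of region classes and of FOXF1 overlap, were recovered exactly. The simulated regions lay well apart, their peaks always overlapped and none was partly reached, so this checks the computation only.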

Additional observations from a re-analysis of the deposited data

How the results depend on the processing

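Of 78 values under the alternatives, 41 were close to the main value, 36 moved and 1 changed sign. Close means within 1 SD between libraries for shares, within 1.5 times for counts and the odds ratio, and the same direction for peak number. The cause of a move was not tested. The FOXF1 odds ratio of 1.74 was 2.83 within strata. With all 6 lists at 24808 peaks, 5134 regions were gained and 4156 lost between Pro and siFOXF1/2 cells. At that length 52.7% of the senescence gain was held after knockdown, and 43.5% of the knockdown gain in Sen cells. Peak numbers have no value at equal length. With summits within 200 bp, 981 regions were lost. The FOXF1 difference between regions not reached and reached (4.31 points) was 5.31 at −log10 q of 5 or more, 9.09 with all 6 lists at equal length, 5.29 with Sen and siFOXF1/2 lists at equal length and 6.22 with FOXF1 in either Sen list. The H3K27ac difference (23.1 points) was 24.0, 13.6 and 20.8 under the first 3 of these, 24.1 with 50% overlap, 19.9 with summits within 200 bp and 10.4 with Sen H3K27ac replicates 3 and 4. Leaving out each library gave 34255 to 54449 regions gained, 623 to 2545 lost, a log2 peak number difference of 1.32 to 1.70, shares of 39.6% to 78.3% for the senescence gain held after knockdown and 43.2% to 76.0% for the knockdown gain held in Sen cells. It gave -9.34 to -0.567 points for the gain defined from 1 Sen library, -0.158 to 3.84 for FOXF1 (the negative value without Sen replicate 1) and 15.4 to 23.6 for H3K27ac. Leaving out a library loosens the rule for its group. A rise was therefore built in for the counts gained and lost, and for the share reached without a siFOXF1/2 library. It was likewise built in for the knockdown gain held in Sen cells without a Sen library, which gave the 76.0%.

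Replicate numbers were shared without a stated pairing, and deviations of libraries with the same number correlated at -0.0082 (presence of a peak, 103027 regions) and 0.0747 (log2 of −log10 q, 19174 regions). With a replicate block the log2 peak number difference was 1.51, with an exact sign-flip permutation p of 0.5, the smallest that 2 pairs allow. Depth limits the weakest peaks, and a region with no peak may hold binding below the caller's threshold.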

Other observations

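In these counts, regions not reached had one another as nearest neighbour no more often than reached regions had them. Within 10 kb, 1474 of the 4629 regions not reached had another region of the senescence gain, and the nearest was itself not reached in 15.2% of cases, against 16.1% for reached regions. Across 23 chromosomes the share not reached ran from 12.6% on chromosome 18 to 20.8% on chromosome 19, with a median of 15.6%. Distance to regions held by all 6 p-c-JUN lists made little difference beyond 1 kb: 18.5% of 643 gained regions within 1 kb were not reached, 16.2% of 5441 between 1 and 10 kb, 15.1% of 17697 between 10 and 100 kb and 15.8% of 6029 farther away.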
